A study of Mus musculus with 14 samples.

Results

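The interferon response genes are a set of 39 mouse genes known to be switched on by interferons, and their messenger RNA was followed in whole lung 6 months after carbon fibre was instilled. The set was listed by name and split by role into sensors, transcription factors, antiviral effectors, the Isg15 conjugation system, interferon-inducible GTPases, antigen processing genes and a small remainder. A gene was read at its brightest probe, the one with the highest mean signal over the arrays. Of the 39 genes, 37 had a probe that could be named through its RefSeq transcript, out of 17178 genes so named on the array. All 37 stood well above background on 14 of 14 arrays. The antiviral GTPases Mx1 and Mx2 had no probe named here and were not analysed. 22 of the 37 had 1 probe and 15 had several.

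Lungs came from male C57BL/6N mice, whose age at dosing is not given in the sources used here. Mice of 3 groups received 200 µg of carbon fibre per mouse into the trachea, as fibre before recycling (VCF, 4 arrays), after carbonization (CCF, 3 arrays) or after firing (RCF, 4 arrays), and the vehicle group received phosphate-buffered saline (Ctrl, 3 arrays). RNA from 1 lung, carrying Cy3 dye, was put on each Agilent array, and the series describes the hybridizations as independent biological samples. A level here is log2 of the signal minus log2 of that array's 75th percentile, so 0 is the 75th percentile of the array's own probes. Levels are compared between arrays for a gene and never between genes. Whole lung mixes many cell types, so fewer cells of a type and less RNA per cell cannot be told apart.

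Interferons are secreted proteins, and cells release the type I interferons on sensing foreign or misplaced nucleic acid. Type I interferons signal through factors that include Stat2 and Irf9, which bind interferon-stimulated response elements (ISRE) in target promoters. Type II interferon, made mostly by T and natural killer cells, acts through gamma-activated sites (GAS), and the interferon-inducible GTPases and the immunoproteasome respond strongly to it. In the lung the pathway is best known for defence against inhaled viruses, with alveolar macrophages and plasmacytoid dendritic cells among the sources of type I interferon.

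RefSeq promoter windows on build GRCm38.p6, running from 250 bases before to 50 bases after a gene's start, were listed for 31 of the 39 genes. The ISRE core was searched as GAAANNGAAA on both strands, and it lay in the windows of 14 of the 31 genes (45.2%), beside 3.99% of all 27025 genes with a window. The GAS motif was searched as TTCNNNGAA, which reads the same on both strands, and lay in 9 of 31 (29.0%) beside 9.55% of all genes. Bst2, Igtp and Oas1a held both motifs, and 11 of 31 held neither. The windows of Psmb9 and Tap1, which lie head to head, shared 275 bases. A match describes the letters of the window and is not a measured binding site. The windows of 5 genes that return below are printed 5′ to 3′ on the gene's own strand, with matches in capitals. Ifit3 and Gbp2 carry ISRE matches and had lower means in each fibre group than in Ctrl. Stat2 and Ddx58, with an ISRE match each, and Irf1, with a GAS match, had higher means there. None of these differences passed the test described below, and the Ddx58 direction in VCF rested on the probe read. A gene with several listed windows counted if any of them held the motif. Counted from the start as base 1, with -1 the base before it, the matches begin at bases -156 and -122 in Ifit3, -59 in Gbp2, -222 in Stat2, 3 in Ddx58 and -90 in Irf1.
Ifit3 (chr19:34583279-34583578, plus strand): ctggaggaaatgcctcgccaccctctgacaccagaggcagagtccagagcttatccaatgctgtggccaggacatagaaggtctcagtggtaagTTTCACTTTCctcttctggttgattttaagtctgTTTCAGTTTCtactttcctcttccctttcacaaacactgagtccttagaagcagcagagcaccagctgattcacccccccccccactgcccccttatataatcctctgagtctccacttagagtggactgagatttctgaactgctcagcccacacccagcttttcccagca
Gbp2 (chr3:142620413-142620712, plus strand): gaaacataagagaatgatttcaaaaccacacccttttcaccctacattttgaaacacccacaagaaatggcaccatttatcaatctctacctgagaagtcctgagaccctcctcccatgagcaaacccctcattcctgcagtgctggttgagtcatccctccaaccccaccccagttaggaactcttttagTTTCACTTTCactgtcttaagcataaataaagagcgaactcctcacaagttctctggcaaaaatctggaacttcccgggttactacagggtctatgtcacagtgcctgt
Stat2 (chr10:128270248-128270547, plus strand): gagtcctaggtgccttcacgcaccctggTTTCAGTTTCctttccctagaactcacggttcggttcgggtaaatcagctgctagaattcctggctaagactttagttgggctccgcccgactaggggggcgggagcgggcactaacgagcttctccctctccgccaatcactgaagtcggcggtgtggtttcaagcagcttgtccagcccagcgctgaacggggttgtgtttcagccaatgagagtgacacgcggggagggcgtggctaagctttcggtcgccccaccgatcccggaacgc
Ddx58 (chr4:40239776-40240075, minus strand): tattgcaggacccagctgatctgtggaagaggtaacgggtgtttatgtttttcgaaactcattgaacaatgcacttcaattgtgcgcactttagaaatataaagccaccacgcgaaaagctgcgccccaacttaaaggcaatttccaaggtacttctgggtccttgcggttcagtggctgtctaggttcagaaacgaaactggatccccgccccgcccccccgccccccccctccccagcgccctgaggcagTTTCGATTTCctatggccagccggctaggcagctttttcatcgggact
Irf1 (chr11:53769764-53770063, plus strand): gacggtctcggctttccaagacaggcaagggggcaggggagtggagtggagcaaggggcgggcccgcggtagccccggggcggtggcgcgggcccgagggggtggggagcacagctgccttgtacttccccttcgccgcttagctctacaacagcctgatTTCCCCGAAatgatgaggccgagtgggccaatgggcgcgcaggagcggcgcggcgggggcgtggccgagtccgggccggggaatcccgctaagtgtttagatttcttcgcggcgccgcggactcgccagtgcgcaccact

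The 14 arrays lay on 4 slides, each with a scan session of its own, so slide and scan cannot be told apart. Slide 1 held Ctrl replicate 3, VCF 3, CCF 3 and RCF 1. Slide 2 held Ctrl 2, VCF 4 and RCF 4, and slide 3 held Ctrl 1, VCF 2, CCF 1 and RCF 3. Slide 4 held VCF 1, CCF 2 and RCF 2 and no Ctrl array. On each array 63.1% to 70.5% of probes stood well above background and 0 spots were saturated. All 11 lung epithelium markers with a probe stood well above background on every array. Liver markers averaged 3.40 and 3.41 log2 above the Ctrl mean in CCF replicate 2 and RCF replicate 1, fat markers 2.41 above it in VCF replicate 1, and thymus markers 2.37 above it in CCF replicate 3. These 4 arrays were left out together as an alternative, which left CCF replicate 1 as the only array of its group.

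No member differed from Ctrl in any fibre group at an adjusted p under 0.05 (limma, Benjamini-Hochberg over all 29269 probes tested). In VCF lungs 30 of the 37 members read lower than in Ctrl and 7 higher, with a median difference of -0.27 log2, while 54.2% of the 14466 genes tested read lower, with a median of -0.02. The test called 0 of 37 members, and 0.0102% of all probes. At an unadjusted p under 0.05 stood 2 members, Ifit3 and Usp18, both lower, beside 5.41% of all genes. Arrays did not overlap for Ifit3 and Usp18, both lower, and for Ddx58, higher, where the shares of all genes are 3.27% lower and 3.31% higher. The median moved to -0.14 without VCF replicate 1 and the count of lower members ran from 24 without Ctrl replicate 1 to 33 without Ctrl replicate 3. With arrays scaled on their median, 33 of 37 members read lower beside 76.7% of all genes, whose median was then -0.15.

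Against Ctrl, the medians of the set in CCF and RCF lungs lay closer to 0 than in VCF with all arrays. That difference was tested only member by member between the fibres. Leaving out the 4 arrays with liver, fat or thymus markers left CCF with replicate 1 alone. The medians were then -0.14 in VCF, 0.14 on that CCF array and -0.12 in RCF. That single CCF array was no closer to 0 than VCF. In CCF 21 members read lower and 16 higher, with a median of -0.05, beside 58.7% of all genes lower and a median of -0.04. The test called 0 members and 0% of all probes. Stat2 (higher) and Iigp1 (lower) had an unadjusted p under 0.05, as did 5.64% of all genes, and arrays did not overlap for 2 members lower, Iigp1 and Usp18, and 2 higher, Stat2 and Ddx58 (6.16% and 3.39% of all genes). The CCF median became 0.07, and 14 members were lower, without CCF replicate 2. It became 0.05 with normexp background correction and 0.00 after quantile normalization. With arrays scaled on their median 28 of 37 members read lower, beside 72.3% of all genes, whose median was then -0.13.

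In RCF 24 members read lower and 13 higher, with a median of -0.10, beside 50.3% of all genes lower and a median of -0.00. The test called 0 members and 0% of all probes. Ifit3 alone had an unadjusted p under 0.05, beside 6.1% of all genes in either direction. Arrays did not overlap for Ifit3, lower, and for Ifih1, higher (4.71% and 4.78% of all genes). The median became 0.01 and the count of lower members 17 without Ctrl replicate 1. The mean of the 3 fibre groups gave 30 members lower and 7 higher with a median of -0.11, beside 56.1% of all genes lower. There limma called 0 members and 0.00342% of all probes, and Ifit3, Iigp1 and Stat2 had an unadjusted p under 0.05 (5.8% of all genes), with no member's groups apart (0.373% lower and 0.449% higher of all genes). Median scaling put 32 members and 73.4% of all genes lower in that mean. The members' median for it became -0.05 without Ctrl replicate 1 and -0.23 without Ctrl replicate 3. The comparisons against Ctrl share the same 3 Ctrl arrays.

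**Figure D1:**
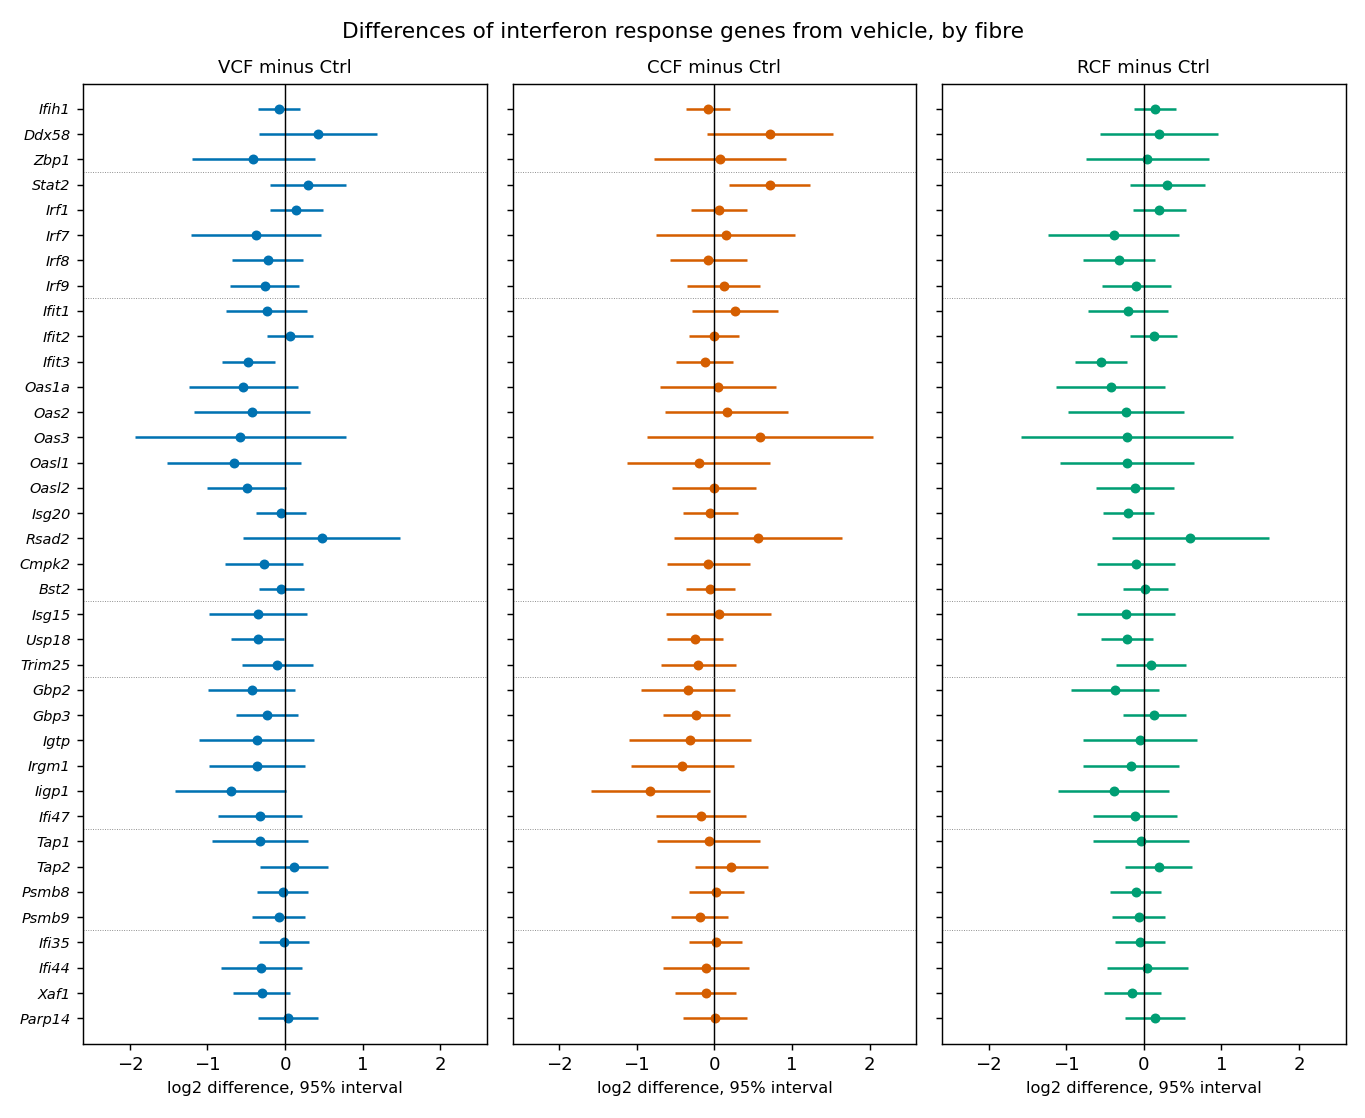
Difference of each fibre group from Ctrl (log2, x axis) for the 37 members measured, with 95% intervals from limma, in 1 panel each for VCF, CCF and RCF and grouped by role. In VCF 30 of 37 points lie left of 0, against 21 in CCF and 24 in RCF, and most intervals cross 0.

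Among the antiviral effectors, 10 of 12 measured read lower in VCF than in Ctrl (median -0.35), 7 of 12 in CCF (-0.01) and 9 of 12 in RCF (-0.20). In CCF the median was 0.10 with normexp and 0.04 after quantile normalization, with 3 and 4 lower. Without CCF replicate 2 the CCF count was 2 of 12 and the median 0.27. Without Ctrl replicate 1 the medians were -0.21 in VCF, 0.09 in CCF (4 of 12 lower) and -0.00 in RCF (6 of 12 lower), and without Ctrl replicate 2 they were -0.19, 0.05 and -0.09. Without VCF replicate 1 the VCF median was -0.22, and without RCF replicate 3 the RCF one was -0.09. Ifit3, an interferon-induced protein that helps block viral RNA, had the smallest p of the set in VCF, in RCF and in the mean of fibres. It read 3.03, 3.15 and 2.96 in Ctrl replicates 1 to 3, 2.53, 2.34, 2.95 and 2.46 in VCF 1 to 4, 2.88, 2.74 and 3.13 in CCF and 2.57, 2.67, 2.32 and 2.42 in RCF. All RCF arrays lay below all Ctrl and all CCF arrays, and VCF replicate 3 reached almost to Ctrl. The RCF difference from Ctrl was -0.55 (SE 0.16, adjusted p 0.585, limma, 4 against 3 arrays), and the VCF difference was -0.47 (SE 0.16, adjusted p 0.400). Averaged over the fibres it was -0.38 (SE 0.13, adjusted p 0.648). Within slides the RCF difference was -0.39 on slide 1, -0.73 on slide 2 and -0.71 on slide 3, and the VCF difference was -0.01, -0.69 and -0.68. Ifit3 has a near-identical neighbour, Ifit3b, and whether its probe separates them was not tested.

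Oasl2, an oligoadenylate synthetase relative, read 2.22, 1.84 and 1.42 in Ctrl, 0.95, 1.23, 1.53 and 1.63 in VCF, 2.10, 1.30 and 2.07 in CCF and 1.71, 1.78, 1.64 and 1.74 in RCF. The VCF arrays were low, overlapping the lowest Ctrl array, while the RCF arrays were close to each other and all above VCF. The VCF difference from Ctrl was -0.50 (SE 0.23, adjusted p 0.618), and it was -0.30 without Ctrl replicate 1 and 0.10 within slide 1. Ifit1, which binds viral RNA ends, read -0.77, 0.16 and -0.24 in Ctrl, -0.85, -0.66, -0.21 and -0.37 in VCF, 0.02, -0.35 and 0.27 in CCF and -0.25, -0.54, -0.83 and -0.34 in RCF. Ctrl alone spanned most of that range, and CCF replicate 3 was the highest array.

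Oas3, which makes the 2-5A messenger that activates RNase L, was the widest member, with a within-group SD of 0.906. Its range over the 14 arrays was 3.07, and it was dim, with group means from -5.42 (VCF) to -4.26 (CCF). It read -3.06, -5.51 and -5.96 in Ctrl, -5.74, -6.13, -4.65 and -5.17 in VCF, -4.08, -5.26 and -3.44 in CCF and -4.95, -4.73, -5.54 and -5.01 in RCF. Ctrl replicate 1 was the highest of all arrays and the other two Ctrl arrays were among the lowest. Rsad2 (viperin, which makes a chain-ending nucleotide) was next, at 0.07, -0.70 and -1.83 in Ctrl, -0.93, -0.50, -0.14 and 0.17 in VCF, 0.53, -1.25 and -0.07 in CCF and -0.39, -0.30, -0.47 and 0.27 in RCF. It read higher in all fibre means than in Ctrl, with the groups overlapping.

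For the other effectors the groups overlapped in all comparisons with Ctrl. Oas1a averaged 0.22 ± 0.75 (SD, n = 3) in Ctrl, -0.32 ± 0.08 (n = 4) in VCF, 0.27 ± 0.62 (n = 3) in CCF and -0.20 ± 0.24 (n = 4) in RCF, and Oas2 averaged -1.20 ± 0.66, -1.63 ± 0.35, -1.04 ± 0.74 and -1.43 ± 0.11 in the same order. Oasl1 averaged -1.56 ± 0.59 in Ctrl, -2.22 ± 0.30 in VCF, -1.77 ± 0.98 in CCF and -1.78 ± 0.33 in RCF. Cmpk2, a mitochondrial nucleotide kinase, averaged 0.20 ± 0.28, -0.08 ± 0.37, 0.12 ± 0.38 and 0.09 ± 0.22. For Oas1a and Oas2 the Ctrl and CCF groups varied most, with SDs of 0.62 to 0.75. Ifit2 averaged -0.83 ± 0.21, -0.77 ± 0.08, -0.84 ± 0.15 and -0.71 ± 0.19. The exonuclease Isg20 averaged 3.19 ± 0.14, 3.14 ± 0.02, 3.14 ± 0.19 and 2.99 ± 0.28, and tetherin, Bst2, which holds budding virus at the cell surface, ranged from 4.85 to 5.32 over all arrays. Bst2 had the second narrowest spread of the set after Ifih1, with a within-group SD of 0.158.

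**Figure D2:**
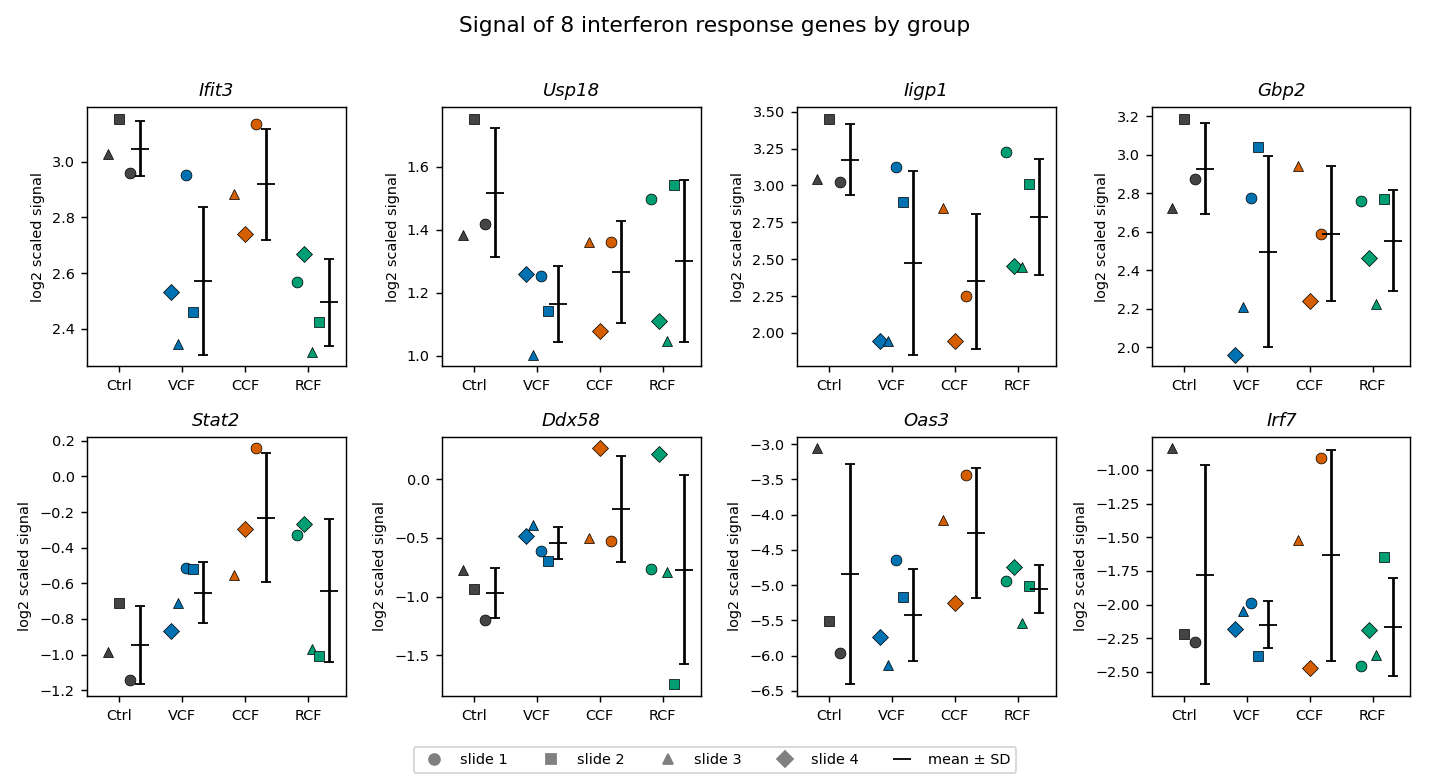
Level (log2 signal relative to the array's 75th percentile, y axis) of 8 members in the 4 groups, 1 point per array with a symbol per slide, and the group mean ± SD beside the points. Ifit3 lies lower on all RCF arrays than on all Ctrl arrays. Stat2 and Ddx58 lie higher on all CCF arrays than on all Ctrl arrays. In Oas3 and Irf7, 1 Ctrl array stands above the other Ctrl arrays, with CCF replicate 3 next to it.

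The interferon-inducible GTPases, which coat and rupture the vacuoles of intracellular microbes, mostly read lower in fibre lungs than in Ctrl. That did not hold for VCF and RCF within slide 1 or for CCF within slide 3. All 6 read lower than Ctrl in VCF (median -0.37) and in CCF (-0.33), and 5 of 6 did in RCF (-0.14), beside 54.2%, 58.7% and 50.3% of all genes. Normexp, quantile normalization and median scaling kept 6 of 6 lower in VCF, 5, 6 and 6 in CCF and 5 of 6 in RCF. With slide as a block 6 read lower in VCF, 5 in CCF and 3 in RCF. Within slide 1 only 2 of 6 read lower in VCF (median 0.13) and 1 in RCF (0.22), with 5 in CCF (-0.26), and within slide 3 they numbered 6 in VCF (-0.52), 5 in RCF (-0.32) and 1 in CCF (0.19). Within slide 2, 5 read lower in VCF (-0.10) and 6 in RCF (-0.41). None of the 6 passed the test.

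Iigp1, an immunity-related GTPase, read 3.04, 3.45 and 3.03 in Ctrl, 1.94, 1.94, 3.13 and 2.89 in VCF, 2.85, 1.95 and 2.25 in CCF and 3.23, 2.46, 2.45 and 3.01 in RCF. All CCF arrays lay below all Ctrl arrays, and VCF split into 2 low arrays and 2 near Ctrl. The CCF difference was -0.82 (SE 0.35, adjusted p 0.738) and the VCF difference -0.70 (SE 0.33, adjusted p 0.618). Averaged over the fibres it was -0.64 (SE 0.28, adjusted p 0.733). The CCF difference within slides was -0.77 on slide 1 and -0.19 on slide 3, and the VCF difference was 0.10 on slide 1, -0.57 on slide 2 and -1.10 on slide 3.

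Gbp2, a guanylate-binding protein that attacks pathogen membranes, read 2.72, 3.19 and 2.87 in Ctrl, 1.96, 2.21, 2.77 and 3.04 in VCF, 2.94, 2.24 and 2.59 in CCF and 2.76, 2.46, 2.22 and 2.77 in RCF. The groups overlapped, with VCF replicates 1 and 2, CCF replicate 2 and RCF replicate 3 lowest. The RCF difference was -0.38 (SE 0.26, adjusted p 0.991), -0.25 without Ctrl replicate 2, and the mean of fibres differed by -0.38 (SE 0.22, adjusted p 0.812), -0.25 without the same array. Irgm1, a regulatory GTPase that restrains its relatives, read 2.53, 2.73 and 2.44 in Ctrl, 1.53, 2.21, 2.43 and 2.64 in VCF, 2.74, 1.47 and 2.26 in CCF and 2.50, 2.49, 2.36 and 2.25 in RCF. Only VCF replicate 1 and CCF replicate 2 lay below 2.21. The CCF difference was -0.41 (SE 0.31, adjusted p 0.844), and it was -0.07 with CCF replicate 2 left out and -0.71 with replicate 1 left out. Without the 4 arrays with markers of other tissues it was 0.17, with CCF replicate 1 as the only CCF array.

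The remaining GTPases had the same low arrays. Igtp read 2.98 and 3.16 in VCF replicates 1 and 2 and 3.36 and 3.33 in CCF replicates 2 and 3, against 3.59 to 4.40 on the other 10 arrays. Ifi47 read 1.41, 1.83 and 1.78 in VCF replicates 1 and 2 and CCF replicate 2, against 2.03 to 2.53 elsewhere. Gbp3 averaged 2.46 ± 0.14 (SD, n = 3) in Ctrl, 2.23 ± 0.36 (n = 4) in VCF, 2.23 ± 0.20 (n = 3) in CCF and 2.60 ± 0.18 (n = 4) in RCF, with VCF replicates 1 and 2 lowest at 1.82 and 2.03. The median of the 6 GTPases relative to the Ctrl mean was -0.98 in VCF replicate 1, -0.62 in VCF replicate 2 and -0.65 in CCF replicate 2, and between -0.34 and 0.22 on the other 11 arrays. Without VCF replicate 1 the VCF median difference was -0.15, and without CCF replicate 2 the CCF one was -0.16, from -0.57 without CCF replicate 1. Without the 4 arrays with other-tissue markers, 6 of 6 GTPases still read lower in VCF (median -0.15). In CCF, then replicate 1 alone, 2 of 6 did (0.09).

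Monocyte markers were low and heart muscle markers high on the same arrays, and on some others too. The 10 monocyte and interstitial macrophage markers, all with a probe and well above background on every array, averaged -0.70, -0.64 and -0.64 relative to the Ctrl mean in VCF replicates 1 and 2 and CCF replicate 2, and their mean differences ran from -0.34 to 0.23 in Ctrl, -0.70 to -0.10 in VCF, -0.64 to 0.52 in CCF and -0.54 to -0.08 in RCF. The 11 of 12 alveolar macrophage markers with a probe ran from -0.10 to 0.07 in Ctrl, -0.48 to -0.20 in VCF, -0.70 to -0.37 in CCF and -0.37 to -0.18 in RCF. The 11 of 13 T and natural killer cell markers ran from -0.46 to 0.43 in Ctrl and from -0.75 (replicate 2) to 0.32 in VCF, -0.17 (replicate 2) to 0.30 in CCF and -0.35 to 0.01 in RCF. All 7 cardiac muscle markers had a probe. They were highest of the 14 arrays on VCF replicate 1 and CCF replicate 2, at 2.29 and 2.28. VCF replicate 2 stood at 1.31, below RCF replicate 1 at 1.77, VCF replicate 3 at 1.52 and RCF replicate 3 at 1.35. In RCF replicate 1, VCF replicate 3 and RCF replicate 3 the GTPase medians were 0.06, -0.07 and -0.27. Monocyte markers stood at -0.54 in RCF replicate 3. The cardiac markers ran from -1.76 to 0.79 in Ctrl, -2.13 to 2.29 in VCF, -1.85 to 2.28 in CCF and -1.43 to 1.77 in RCF. Fat markers stood at 1.18 in CCF replicate 2, beside the 2.41 of VCF replicate 1. Summed linear signal relative to the 75th percentile, added over a list, was 150 to 225 in Ctrl, 117 to 166 in VCF, 141 to 208 in CCF and 137 to 153 in RCF for the monocyte list. It was 236 to 277, 198 to 250, 175 to 225 and 218 to 242 for alveolar macrophages, 10.5 to 19.7, 7.79 to 18.1, 11.7 to 17.2 and 10.66 to 14.7 for T and natural killer cells, and 18.5 to 103, 13.98 to 263, 24.5 to 260 and 28.2 to 184 for cardiac muscle. No marker of the first 3 lists was below background on any array, and 1 cardiac marker, Myh6, was on 1 Ctrl array. Their part in the result was not tested.

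**Figure D3:**
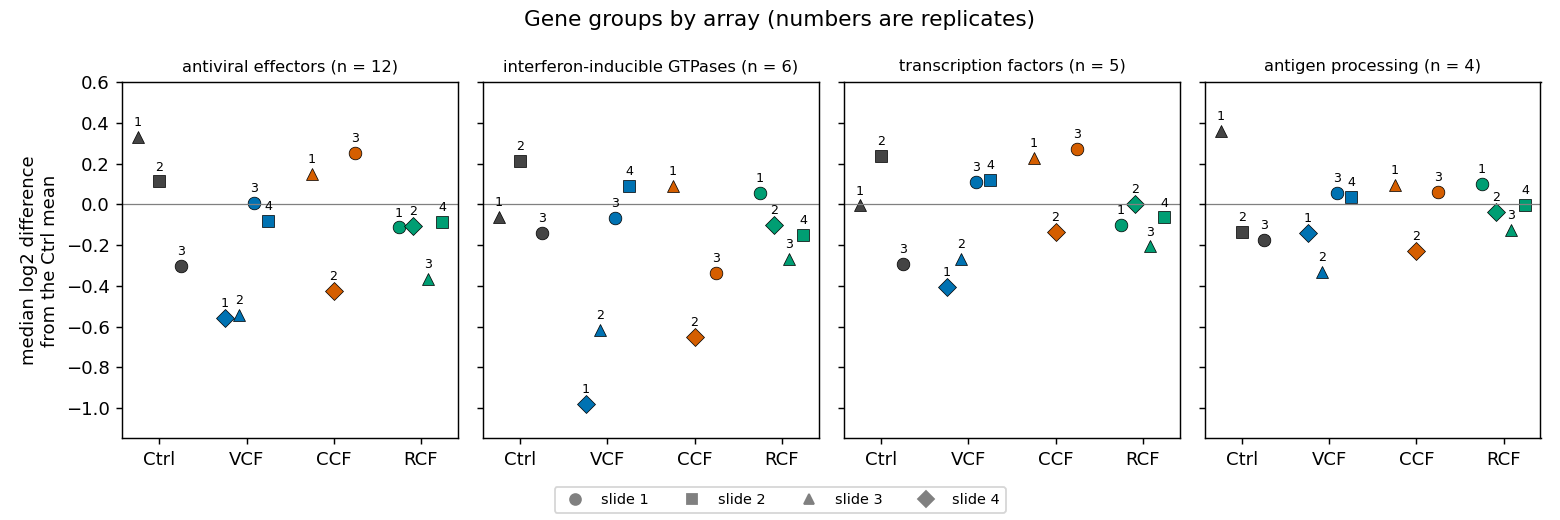
Median difference from the Ctrl mean (log2, y axis) on each of the 14 arrays, for 4 roles with 12 antiviral effectors, 6 GTPases, 5 transcription factors and 4 antigen processing genes. VCF replicates 1 and 2 and CCF replicate 2 stand lowest for the GTPases, at -0.98, -0.62 and -0.65.

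In the Isg15 conjugation system, which attaches the ubiquitin-like Isg15 to proteins, all 3 genes read lower in VCF than in Ctrl, also under normexp, quantile normalization and median scaling. Usp18, the protease that removes Isg15 and damps the type I receptor, read 1.38, 1.75 and 1.42 in Ctrl, 1.26, 1.00, 1.25 and 1.14 in VCF, 1.36, 1.08 and 1.36 in CCF and 1.50, 1.11, 1.05 and 1.54 in RCF. All VCF and all CCF arrays lay below all Ctrl arrays, CCF by a narrow gap. The differences from Ctrl were -0.35 (SE 0.16, adjusted p 0.580) in VCF, -0.25 (SE 0.17, adjusted p 0.822) in CCF and -0.22 (SE 0.16, adjusted p 0.991) in RCF, and -0.27 (SE 0.13, adjusted p 0.769) in the mean. Without Ctrl replicate 2 the CCF, RCF and mean values were -0.13, -0.10 and -0.16. Within slides the VCF difference was -0.16, -0.61 and -0.38 on slides 1 to 3.

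Isg15 itself read 0.91, 0.74 and 0.65 in Ctrl, 0.29, -0.04, 1.01 and 0.44 in VCF, 0.75, 0.21 and 1.50 in CCF and 0.68, 0.68, 0.13 and 0.65 in RCF. Its highest array was CCF replicate 3 and its lowest VCF replicate 2, and the fibre groups overlapped Ctrl. Trim25, a ligase that activates the sensor RIG-I, averaged 2.34 ± 0.27 (SD, n = 3) in Ctrl, 2.24 ± 0.16 (n = 4) in VCF, 2.13 ± 0.41 (n = 3) in CCF and 2.43 ± 0.28 (n = 4) in RCF.

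Among the transcription factors, Stat2, the type I interferon signal transducer, had a higher mean in each fibre group than in Ctrl, while its partner Irf9 had a lower mean in VCF and RCF and a higher one in CCF. None of the 5 passed the test. Stat2 read -0.98, -0.71 and -1.14 in Ctrl, -0.87, -0.71, -0.51 and -0.52 in VCF, -0.56, -0.30 and 0.16 in CCF and -0.33, -0.26, -0.97 and -1.01 in RCF. All CCF arrays lay above all Ctrl arrays, and RCF split into 2 high and 2 low arrays. The CCF difference was 0.71 (SE 0.24, adjusted p 0.644), 1.30 within slide 1 and 0.43 within slide 3. The RCF difference was 0.30 (SE 0.22, adjusted p 0.991), 0.18 without RCF replicate 2, and the mean of fibres differed by 0.44 (SE 0.19, adjusted p 0.732). Within slides the RCF difference was 0.82, -0.30 and 0.02 on slides 1 to 3.

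Irf7, the factor that amplifies type I interferon production, read -0.84, -2.22 and -2.28 in Ctrl, -2.18, -2.05, -1.99 and -2.38 in VCF, -1.52, -2.47 and -0.91 in CCF and -2.46, -2.19, -2.37 and -1.65 in RCF. Ctrl replicate 1 and CCF replicate 3 stood above the others, and the groups overlapped. Irf8, a factor of myeloid cells, read 3.20, 3.61 and 2.81 in Ctrl and 2.89, 3.01, 2.76 and 2.88 in RCF, and it averaged 2.98 ± 0.34 (SD, n = 4) in VCF and 3.13 ± 0.26 (n = 3) in CCF. Its RCF difference was -0.32 (SE 0.21, adjusted p 0.991), from -0.52 without Ctrl replicate 3 to -0.12 without Ctrl replicate 2. Irf9 averaged 1.13 ± 0.28 in Ctrl, 0.86 ± 0.40 in VCF, 1.25 ± 0.22 in CCF and 1.03 ± 0.09 in RCF. Irf1, the main factor downstream of type II interferon, averaged 4.74 ± 0.21 in Ctrl, 4.89 ± 0.29 in VCF, 4.80 ± 0.12 in CCF and 4.95 ± 0.08 in RCF.

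Of the 3 nucleic acid sensors 2 read lower than Ctrl in VCF (median -0.08), 1 in CCF (0.07) and 0 in RCF (0.14), and none of the 3 passed the test. In RCF the count stayed at 0 with normexp, quantile normalization and the slide block, was 1 with median scaling and was 0, 1 and 2 within slides 1 to 3. Ddx58, which encodes the RNA sensor RIG-I, read -0.77, -0.93 and -1.20 in Ctrl, -0.48, -0.39, -0.61 and -0.69 in VCF, -0.50, 0.26 and -0.52 in CCF and -0.76, 0.22, -0.79 and -1.75 in RCF. All VCF and CCF arrays lay above all Ctrl arrays, while RCF spread beyond both ends. The CCF difference was 0.71 (SE 0.38, adjusted p 0.784), 0.46 without CCF replicate 2, 0.67 within slide 1 and 0.27 within slide 3. In VCF it was 0.42, and 3 dimmer probes of the gene gave -0.07, -0.20 and 0.08 there, and 0.20, 0.11 and 0.69 in CCF, so the VCF direction rested on the probe read. Ifih1 (MDA5, a sensor of long RNA) read 1.59, 1.73 and 1.61 in Ctrl, 1.46, 1.54, 1.47 and 1.79 in VCF, 1.71, 1.66 and 1.30 in CCF and 1.80, 1.80, 1.77 and 1.79 in RCF. All RCF arrays lay above all Ctrl arrays within a narrow band, and it had the smallest within-group SD of the set, 0.137. Zbp1, a sensor of Z-form nucleic acid that can start cell death, read 1.57, 0.88 and -0.42 in Ctrl, -0.08, 0.05, 0.45 and 0.65 in VCF, 0.79, 0.35 and 1.10 in CCF and 0.67, 0.66, 0.68 and 0.89 in RCF. The 3 Ctrl arrays held both its highest and its lowest value.

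For the antigen processing genes every fibre group overlapped Ctrl, with differences from -0.32 (Tap1 in VCF) to 0.22 (Tap2 in CCF). Psmb8 and Psmb9, immunoproteasome subunits, averaged 4.21 ± 0.09 and 4.45 ± 0.11 (SD, n = 3) in Ctrl, 4.18 ± 0.25 and 4.37 ± 0.28 (n = 4) in VCF, 4.24 ± 0.24 and 4.26 ± 0.21 (n = 3) in CCF and 4.11 ± 0.11 and 4.39 ± 0.12 (n = 4) in RCF. Tap1, a subunit of the peptide pump into the endoplasmic reticulum, averaged -0.98 ± 0.63 in Ctrl, -1.30 ± 0.34 in VCF, -1.05 ± 0.45 in CCF and -1.02 ± 0.13 in RCF. Its partner Tap2 averaged -0.06 ± 0.54, 0.06 ± 0.16, 0.16 ± 0.13 and 0.13 ± 0.09 in the same order. Ctrl replicate 1 was the highest array for both, at -0.27 for Tap1 and 0.57 for Tap2, which widened Ctrl.

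Of the remaining members, Xaf1, a pro-apoptotic interferon target, read 1.39, 1.54 and 1.47 in Ctrl, 0.93, 0.91, 1.60 and 1.21 in VCF, 1.32, 1.19 and 1.56 in CCF and 1.42, 1.43, 1.10 and 1.33 in RCF. VCF replicates 1 and 2 were lowest and VCF replicate 3 was the highest of all. The VCF difference was -0.30 (SE 0.17, adjusted p 0.708) and 0.13 within slide 1. Ifi44 averaged -0.85 ± 0.34 (SD, n = 3) in Ctrl, -1.16 ± 0.32 (n = 4) in VCF, -0.95 ± 0.52 (n = 3) in CCF and -0.80 ± 0.09 (n = 4) in RCF. Ifi35 averaged 2.57 ± 0.22, 2.55 ± 0.25, 2.59 ± 0.11 and 2.52 ± 0.06, and the ADP-ribosyltransferase Parp14 ranged from 2.64 to 3.35 over all arrays. The groups overlapped in these 3 genes.

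The set varied more between arrays of a group than genes at large. Its median within-group SD was 0.317 beside 0.230 over all genes tested, and its median range over the 14 arrays was 1.06 beside 0.811. The RCF arrays were close to each other in many members, among them Oasl2, Ifih1 and Bst2. In others RCF had the largest SD of the 4 groups, among them Ddx58 (0.80), Stat2 (0.40), Isg20 (0.28) and Usp18 (0.26). Relative to the Ctrl mean, the median of the 37 members was 0.01, 0.14 and -0.16 on the Ctrl arrays, -0.52, -0.43, 0.02 and -0.02 in VCF, 0.14, -0.36 and 0.09 in CCF and 0.01, -0.05, -0.19 and -0.08 in RCF, where the median of all genes lay between -0.08 and 0.03 on every array. Members below the Ctrl mean numbered 32 and 31 in VCF replicates 1 and 2, 31 in CCF replicate 2 and also 32 in Ctrl replicate 3, and 10 to 25 elsewhere. So 2 of the 4 VCF arrays stood low and 2 did not, and 1 of the 3 Ctrl arrays stood low as well.

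Ctrl replicate 1 was the highest of the 14 arrays in 8 members, and neutrophil markers were also highest on that array, at 1.18 above the Ctrl mean, with the other two Ctrl arrays at -0.69 and -0.49 (10 of 10 markers with a probe, all above background). The list's summed signal ran from 90.2 to 414 in Ctrl, 84.5 to 216 in VCF, 164 to 287 in CCF and 62.8 to 165 in RCF. Its part in the result was not tested. Plasmacytoid dendritic cell markers, 8 of 8 with a probe, lay between -0.13 and 0.48 in all groups, with 1 of them, Runx2, never above background. Red blood cell markers, 6 of 8 with a probe, lay 1.21 to 1.81 above the Ctrl mean in VCF 0.34 to 1.88 in CCF and 0.83 to 1.28 in RCF, and their part was not tested either.

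**Figure D4:**
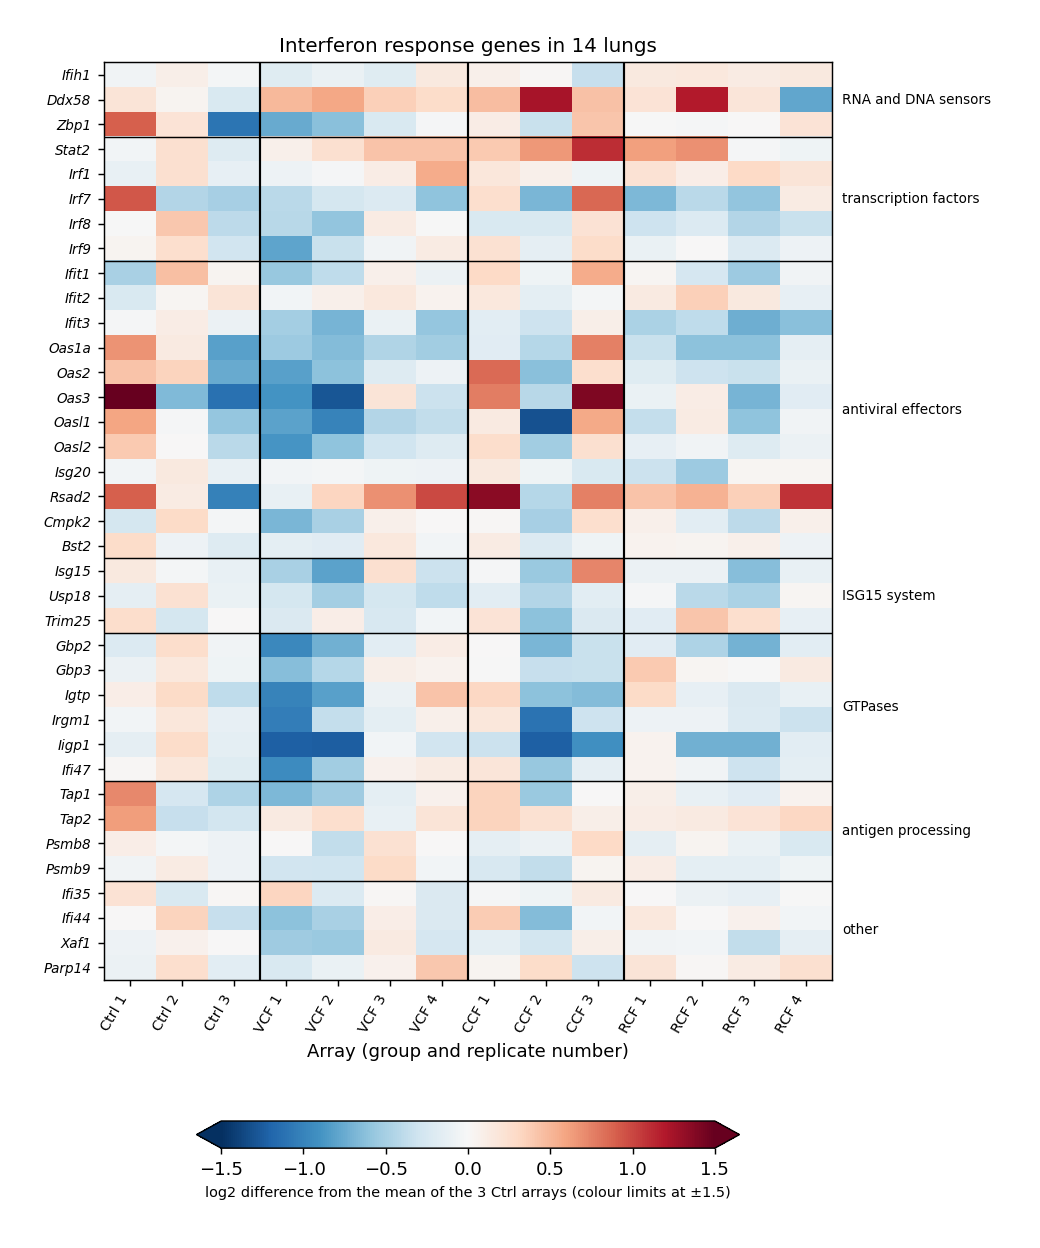
Difference of each of the 37 members (rows, by role) from its Ctrl mean (log2, colour) on each of the 14 arrays (columns, by group). Most members are below the Ctrl mean in VCF replicates 1 and 2, CCF replicate 2 and Ctrl replicate 3, with 31 or 32 of 37 members below it.

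The differences changed with the slide. Within slide 1 the fibre arrays stood above Ctrl replicate 3, with member medians of 0.23 for VCF, 0.27 for CCF and 0.20 for RCF and 7, 11 and 10 of 37 members lower. Within slide 2 the medians were -0.13 for VCF and -0.19 for RCF, and within slide 3 they were -0.46 for VCF, -0.02 for CCF and -0.31 for RCF. These within-slide values compare 1 array with 1 array and have no replicate. With slide as a block in the fit, 30 members read lower in VCF (median -0.19), 15 in CCF (0.04) and 20 in RCF (-0.01), so the VCF median stayed below 0 and the CCF median did not. The GTPases gave -0.23 in VCF, -0.09 in CCF and -0.01 in RCF under that block.

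Between the fibre groups, 0 members and 0% of all probes were called by limma in each pair. CCF read higher than VCF in 28 of 37 members, with a median of 0.15, where 52.8% of all genes read lower. Antiviral effectors and transcription factors had medians of 0.40 and 0.39 there and GTPases 0.03. Ifit3 differed by 0.35 (SE 0.16, adjusted p 0.860) and was the sole member with an unadjusted p under 0.05 (3.86% of all genes). Ifit1 differed by 0.50 (SE 0.24, adjusted p 0.862) and Oasl2 by 0.49 (SE 0.23, adjusted p 0.862), the latter by 0.75 without CCF replicate 2. Oas1a alone had groups apart, higher in CCF (1.24% of all genes, and 2.61% lower). Leaving out CCF replicate 1 gave a median of 0.05 for this pair, and leaving out CCF replicate 2 gave 0.27. Within slides 1, 3 and 4 it was 0.09, 0.50 and 0.15, and 11 of 18 other probes had the same sign as the brightest.

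RCF read higher than VCF in 30 of 37 members, with a median of 0.13, and 47.4% of all genes read lower (28.3% with arrays scaled on their median). All 6 GTPases were among the higher ones (median 0.26). No member had an unadjusted p under 0.05, beside 3.05% of all genes, and groups were apart for Oasl2 and Zbp1, both higher in RCF (1.58% of all genes, and 1.26% lower). Gbp3 differed by 0.37 (SE 0.17, adjusted p 0.947), 0.24 without VCF replicate 1, Ifih1 by 0.22 (SE 0.11, adjusted p 0.982) and Oasl2 by 0.38 (SE 0.22, adjusted p 1.00), 0.25 without the same array. Without VCF replicate 1 the median of this pair was 0.04, and without VCF replicate 4 it was 0.21. It was 0.02 without the 4 arrays with other-tissue markers, and -0.00, -0.01, 0.16 and 0.50 within slides 1 to 4, so it was near 0 on 2 of the slides. Other tested probes of the members, 18 in all, had the sign of the brightest probe in 8 cases for this pair.

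RCF against CCF gave 21 members lower and 16 higher with a median of -0.03, beside 44.6% of all genes lower (36.6% with normexp). Ifit3 was lower by -0.43 (SE 0.16, adjusted p 0.562), with 1 member at an unadjusted p under 0.05 beside 7.85% of all genes. Gbp3 was higher by 0.37 (SE 0.18, adjusted p 0.660), and the groups were apart for Ifit3, lower, and for Gbp3 and Ifih1, higher (3.09% and 6.94% of all genes). Ifit1 differed by -0.47 (SE 0.24, adjusted p 0.664). The median ran from -0.19 without CCF replicate 2 to 0.07 without CCF replicate 3, and 9 of 18 other probes had the same sign as the brightest. Against Ctrl that number was 14 for VCF, 11 for CCF and 15 for RCF.

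Members with an ISRE match in their promoter window and members with neither motif had close medians, and no difference between motif classes was tested. In VCF against Ctrl, 11 of the 14 measured members with an ISRE match were lower (median -0.29), as were 11 of 11 with neither motif (-0.31) and 4 of 6 with a GAS match alone (-0.02). The 6 measured members without a listed window had a median of -0.38. In CCF the medians were -0.00, -0.10 and 0.01 for ISRE, neither and GAS alone, and in RCF they were -0.11, -0.10 and -0.08. The ISRE class held both Ifit3 and Gbp2, with lower fibre group means, and Stat2 and Ddx58, with higher ones, all printed above. In VCF the Ddx58 direction rested on the probe read.

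The wider interferon pathway was read through 118 further genes, of which 96 had a probe and 89 were tested, and limma called 0 of them in the comparisons with Ctrl. Lower than Ctrl were 71 of 89 in VCF (median -0.14), 55 in CCF (-0.06) and 60 in RCF, beside 54.2%, 58.7% and 50.3% of all genes. At an unadjusted p under 0.05 stood 4 of 89 in VCF, 3 in CCF and 2 in RCF, where 5.41%, 5.64% and 6.1% of all genes stood. By role in VCF, 12 of 13 further GTPases and chemokines and 26 of 31 further interferon-induced genes read lower, with medians of -0.20 and -0.23. Sensing genes upstream of interferon read lower in 11 of 12 (-0.09) and MHC class I genes in 7 of 10 (-0.05). Of the interferon ligands 8 of 19 could be tested, and 6 read lower (-0.13). Their probes were dim, with Ifna12 at -9.21 to -5.78 and Ifng at -3.81 to -1.92. Negative regulators read lower in 2 of 6. All these counts come from the same arrays as the members' counts, so they are not an independent result. They are given with all arrays only, and not within slides or with an array left out. Within slide 1 the members' median difference of VCF from Ctrl was 0.23.

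Ifi30, a lysosomal thiol reductase of antigen processing, had the smallest p of these genes in VCF, RCF and the mean. It read 3.58, 3.53 and 3.29 in Ctrl, 2.55, 2.80, 3.12 and 3.15 in VCF, 3.29, 2.68 and 3.20 in CCF and 2.66, 2.95, 3.03 and 2.93 in RCF. All VCF and RCF arrays lay below all Ctrl arrays, as they did for 3.27% (VCF) and 4.71% (RCF) of all genes. Its differences were -0.56 (SE 0.18, adjusted p 0.400) in VCF, -0.58 (SE 0.18, adjusted p 0.696) in RCF and -0.52 (SE 0.16, adjusted p 0.574) in the mean of fibres. Ly6a, the surface antigen Sca-1, differed by -0.47 (SE 0.16) in both VCF (adjusted p 0.417) and RCF (adjusted p 0.777) and by -0.41 (SE 0.14, adjusted p 0.637) in the mean. In CCF the smallest p belonged to Slfn5, which was higher by 0.90 (SE 0.26, adjusted p 0.623), and Gbp5, higher by 0.49 (SE 0.22, adjusted p 0.745). Slfn5 read -3.31, -3.13 and -3.26 in Ctrl and -2.20, -2.27 and -2.53 in CCF. Gbp5 read -1.57, -1.33 and -1.46 in Ctrl and -1.01, -0.98 and -0.91 in CCF. The groups were apart in both, higher in CCF, as for 3.39% of all genes.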

How the data were processed

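Per the file headers, the deposited scanner output gives a background-subtracted intensity for every spot, made with Agilent Feature Extraction (version 10.7.3.1) and not normalized between arrays. Flags in other deposited columns mark saturated spots, outlier spots and spots well above background. For 100% of 27496 probes the authors' deposited log2 values equal log2 intensity less a constant per array, within 0.01.

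Spots flagged as outliers and 1639 control spots were left out, and 43379 spots were averaged to 41174 probes. Values are log2 intensity minus each array's 75th percentile (725 to 1346 intensity units). Probes well above background on at least 3 of 14 arrays (29269) were tested. Symbols came from RefSeq accessions (assembly GRCm38.p6, not the build of the array grid), with 24844 probes named. limma 3.58.1 in R 4.3.3 (with the data.table package at 1.17.8) fitted 4 groups together, with 10 residual and 2.39 prior degrees of freedom, two-sided tests and Benjamini-Hochberg adjustment, after a check on simulated data. Figures used Python 3.11.15 and matplotlib 3.10.9. The number of arrays limits the precision, and each p-value sets a difference against the spread between these samples within groups.

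Members and lists were chosen with earlier results of these data known. Every member is named, with SE and adjusted p for the 5 of smallest p against Ctrl and 3 per fibre pair, and the 2 of smallest p among other pathway genes. Replicate numbers did not pair samples: same-numbered arrays correlated at -0.37 to 0.35 in their deviations (mean 0.01 over 19 pairs). Same-slide arrays correlated at a mean of 0.17 over 18 pairs and other arrays at -0.05, so values within slides and with slide as a block are given. The count of lower members was added to the alternatives after seeing the data.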

Additional observations from a re-analysis of the deposited data

Results flagged for a closer look

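Of 76 groups of 4 arrays examined for a far sample, 2 were marked, and chance marks about 1 in 20. Zbp1 in RCF replicate 4 read 0.89 (log2, relative to the 75th percentile), where the other three RCF arrays read 0.66 to 0.68. Isg15 in RCF replicate 3 read 0.13, where the other three read 0.65 to 0.68. Both values lie within the range of the VCF and Ctrl arrays together.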

How the results depend on the processing

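No alternative called a member in any comparison, and the smallest adjusted p of a member under any of them was 0.279. The counts of lower members and their alternatives were chosen after seeing the data. Within slide 1 the median difference against Ctrl was 0.23 for VCF (7 members lower), 0.27 for CCF (11 lower), 0.20 for RCF (10 lower) and 0.22 for the mean of fibres (9 lower). CCF against VCF gave 0.09, 0.50 and 0.15 within slides 1, 3 and 4. RCF against VCF gave -0.00, -0.01, 0.16 and 0.50 within slides 1 to 4, and 0.02 without the 4 arrays with other-tissue markers. RCF against CCF gave -0.12, -0.38 and 0.25 within slides 1, 3 and 4. Without the 4 arrays with other-tissue markers, CCF was replicate 1 alone. There 11 members were lower in CCF against Ctrl and the Irgm1 difference of CCF from Ctrl turned to 0.17. The RCF against CCF median was -0.27. The cause of these changes was not tested.

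Leaving out each array gave medians of -0.40 to -0.14 (VCF), -0.15 to 0.07 (CCF), -0.21 to 0.01 (RCF) and -0.23 to -0.05 (mean of fibres) against Ctrl. The lower members numbered 24 to 33, 14 to 29, 17 to 27 and 21 to 31. For the fibre pairs the medians ran from 0.05 to 0.27 (CCF against VCF), 0.04 to 0.21 (RCF against VCF) and -0.19 to 0.07 (RCF against CCF). The fit on the groups compared alone was not run for the mean of fibres, which uses all groups.

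The replicate block, fitted although same-numbered arrays did not deviate together, called 0 members, with Ifit3 at -0.44 in VCF and -0.52 in RCF against Ctrl and Stat2 at 0.71 in CCF. Of the values for named genes under alternatives, 827 stayed on the same side or within the spread, 30 moved further and 1 reversed. A value within the spread could still change sign. Leave-one-out fits aside, Irgm1 in CCF kept its sign in 13 of 15 alternatives. Iigp1, Oasl2 and Xaf1 in VCF and Irf8, Usp18 and Stat2 in RCF kept theirs in 15 of 16 each. Ifih1 in RCF against VCF did so in 16 of 17. Normexp put 66.1% of all genes lower in the mean of fibres, from 56.1%.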
